A study of Homo sapiens with 4 samples.

Results

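The genes described here are the cancer-testis antigen families GAGE, PAGE, XAGE, CTAG, CSAG, SPANX, CT45, CT47 and SSX together with PRAME, and they were followed across the 4 arrays of a microarray experiment on 5-azacytidine (AZA). A gene was a member when the name that the array design gives its probe began with GAGE, PAGE, XAGE, CTAG, CSAG, SPANX, CT45A or CT47A, began with SSX followed by a digit, or was PRAME. It found 44 of the 43311 gene names on the array, measured by 58 of 58185 probes, and 36 of the 44 had a probe on the X chromosome. It also took in 7 CTAGE genes with 12 probes, because their names begin with CTAG. They belong to another gene family, are described separately, and leave 37 genes and 46 probes when set aside.

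MDS-L is a human cell line established from a patient with myelodysplastic syndrome, and MDS-L/CDA is its derivative, transduced with CDA, whose product deaminates cytidine analogues, and described by the study as resistant to AZA. Cells of both lines, cultured in medium with serum and interleukin-3, were kept for 72 h with AZA at 1 μM or with its vehicle, DMSO at 0.1%, and total RNA of each of the 4 conditions was hybridized to 1 array. No condition was replicated, so no difference below has a replicate check, an error or a p-value, and each comparison is one between individual arrays. The titles of the AZA arrays give the dose as 1 mM, while the source names give the 1 μM used here. For the MDS-L AZA and the MDS-L/CDA vehicle array the treatment field names the opposite treatment. Title, description and source name give vehicle and AZA as used here. If that field were right, both MDS-L arrays would carry vehicle and both MDS-L/CDA arrays AZA.

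Cancer-testis genes are transcribed in germ cells and are silent in most other adult tissues, where methylation of CG dinucleotides in their promoters is a known part of the silencing. Many lie on the X chromosome in clusters of near-identical copies. AZA is incorporated into nucleic acids, and in DNA it traps and depletes the maintenance DNA methyltransferase DNMT1. Peptides of several of these proteins are displayed on tumour cells and recognised by cytotoxic T cells, which is how the first of the families were found.

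The sequences below are 60-base probes of the array for members that were detected with AZA in MDS-L cells, shown because they are the actual targets of the measurement and because copies share them. Positions are those of hg19 in the array files. No annotation of that build was used here, so exon and UTR positions are not given.
GAGE7, chrX:49218341-49218400, plus strand: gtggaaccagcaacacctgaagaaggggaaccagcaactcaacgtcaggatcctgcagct
CTAG2, chrX:153880418-153880477, minus strand: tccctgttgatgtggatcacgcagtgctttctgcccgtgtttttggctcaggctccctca
XAGE1B, chrX:52241141-52241200, plus strand: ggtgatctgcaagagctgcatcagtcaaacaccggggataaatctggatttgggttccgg
PAGE2B, chrX:55103897-55103956, plus strand: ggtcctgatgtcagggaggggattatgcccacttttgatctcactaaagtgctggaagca
PRAME, chr22:22891002-22891061, minus strand: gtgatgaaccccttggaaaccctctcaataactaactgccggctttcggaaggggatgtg
CT47A11, chrX:120069066-120069125, minus strand: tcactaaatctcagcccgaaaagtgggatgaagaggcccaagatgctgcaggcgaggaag
The CTAG2 probe lists transcripts of CTAG1A, CTAG1B and CTAG2, the PAGE2B probe those of PAGE2 and PAGE2B, the XAGE1B probe those of XAGE1A and XAGE1B, and the CT47A11 probe those of CT47A8, CT47A9, CT47A10 and CT47A11. Of the 58 member probes, 20 listed transcripts of more than 1 RefSeq gene, 53 listed at least 1, and 5 listed none that matched. At most 4 transcripts are listed for a probe, so these lists may be partial. A gene name below therefore stands for the probe, and the signal cannot be divided between copies.

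Values are normalized signals, that is the processed spot intensity of a probe after each array was scaled to a common 75th percentile (45.3). A probe counted as detected when the scanner software marked it well above background, and the lowest normalized signal so marked was 8.61 with vehicle and 8.63 with AZA in MDS-L cells, and 12.3 with vehicle and 13.4 with AZA in MDS-L/CDA cells. Between 32.6% and 36.5% of probes were well above background on each array. Where the dimmer array of a pair was not well above background, the fold is given as "at least", computed against that lowest value or, if higher, the signal of the probe itself. No fold is given when both were below background. Spots of one probe repeated within an array had a pooled SD of 0.18 to 0.43 on the log2 scale, which covers neither hybridization nor culture. The CDA probe stayed below the detection mark on every array (4.27 to 6.6), and whether it lies in the transduced sequence is not given in the sources used here, so the arrays are named by their labels.

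More of the antigen genes were detected with AZA than with vehicle in MDS-L cells, and not in MDS-L/CDA cells. Well above background were 8 of the 44 genes with vehicle and 19 with AZA in MDS-L cells, and 7 with vehicle and 5 with AZA in MDS-L/CDA cells, and without the CTAGE genes these counts were 4, 15, 4 and 3. With the looser mark of the scanner software, a positive and significant signal, 28 and 34 of the 44 genes passed with vehicle and AZA in MDS-L cells, and 28 and 27 in MDS-L/CDA cells. Among the 36 members that vehicle-treated MDS-L cells did not show above background, 11 (30.6%) were well above it with AZA, against 5.01% of all genes below background there. In MDS-L/CDA, 0 of 37 crossed in this way, which lies near the 2.37% of all genes. The limit to be crossed was also higher there, at 13.4 with AZA against 8.63 with AZA in MDS-L. Among the members that stayed between these limits with AZA in MDS-L/CDA, XAGE1B went from 3.17 to 10.3, SPANXN3 from 3.38 to 10.9 and CSAG4 from 6.62 to 10.6. The counts of the 2 lines are therefore not on an equal footing. These are bulk measurements, in which fewer cells expressing a gene and less RNA per cell cannot be told apart.

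With AZA, 9 of the 44 genes (20.5%) were at least 2-fold higher in MDS-L cells, against 3.06% of all genes, and all 9 lay outside the CTAGE genes. Counted once per family, since copies cannot be divided, the 9 became 7, and the share of all genes was not counted in this way. Only CTAGE1 was at least 2-fold lower, against 2.98% of all genes. In MDS-L/CDA cells 0 members were 2-fold higher (1.10% of all genes) and 0 were 2-fold lower (1.46%). Both counts lie near these shares, and only 8 member probes had a ratio or bound in MDS-L/CDA. Over the 9 member probes measured on both MDS-L arrays the median log2 ratio of AZA to vehicle was 0.0, beside -0.15 over 19448 probes of all genes, and over the 6 measured on both MDS-L/CDA arrays it was 0.22, beside 0.01. These medians include CTAGE probes. Outside CTAGE the measured ratios in MDS-L were 76.1 for GAGE2B, 1.81 for PAGE2, 1.02 for SPANXA2-OT1 and 0.902 for CT47A11. In MDS-L/CDA they were 1.23 for GAGE2B, 0.716 for SPANXA2-OT1 and 1.29 for CT47A11. A further 14 member probes were well above background in MDS-L AZA only and have no measured ratio.

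**Figure D1:**
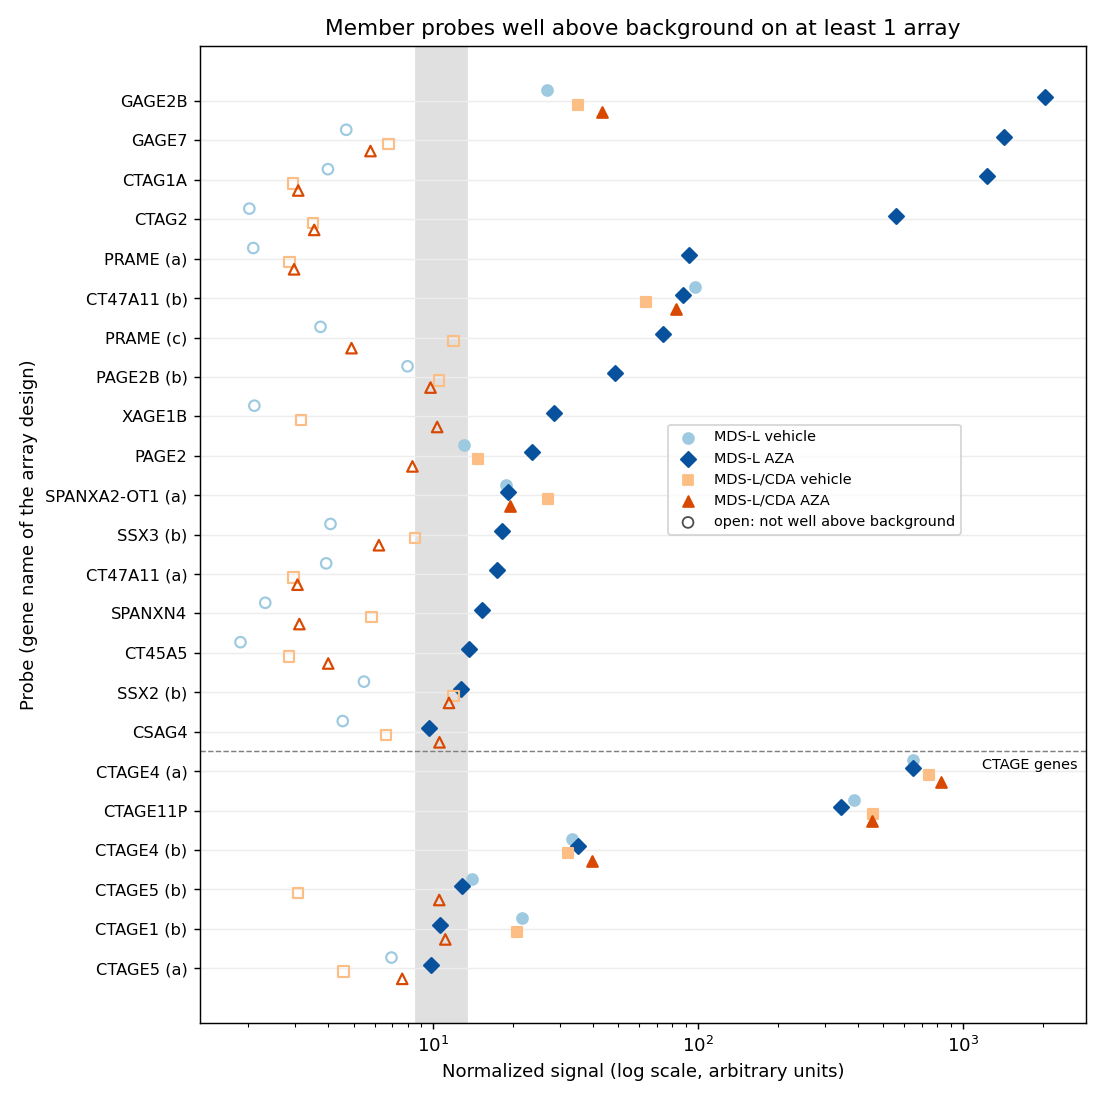
Normalized signal (log axis, arbitrary units) of the 23 member probes well above background on at least 1 array, with one symbol per array and open symbols where the probe was not well above background; letters tell probes of a gene apart, and the grey band spans the lowest signals well above background on the 4 arrays (8.61 to 13.4). GAGE2B, GAGE7, CTAG1A and CTAG2 stand between 557 and 2045 in MDS-L AZA and between 2.02 and 43.2 on the other arrays, whereas the 4 symbols of CTAGE11P and of each CTAGE4 probe, below the dashed line, lie close together.

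The GAGE genes, which encode small acidic proteins that are largely unfolded, were higher with AZA in MDS-L cells on 2 of their 3 probes. The GAGE2B probe (chrX:49242935-49242993, listing transcripts of GAGE12F) gave 26.9 with vehicle and 2045 with AZA in MDS-L cells, and 35.1 with vehicle and 43.2 with AZA in MDS-L/CDA cells. It was well above background on all arrays, so its 76.1-fold higher signal with AZA in MDS-L cells was measured on both sides, and its ratio in MDS-L/CDA cells was 1.23. The GAGE7 probe, whose listed transcripts matched no RefSeq gene, gave 4.69, 1424, 6.77 and 5.79 in the same order. Only the MDS-L AZA value was well above background, so the signal in MDS-L cells was at least 165-fold higher with AZA. The GAGE1 probe did not share this pattern and was below background everywhere (2.06 to 2.86).

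The PAGE and XAGE genes are relatives of GAGE on the X chromosome. The PAGE2B probe printed above gave 7.99 with vehicle and 48.5 with AZA in MDS-L cells, and 10.5 with vehicle and 9.76 with AZA in MDS-L/CDA cells, at least 5.64-fold higher with AZA in MDS-L, while the other PAGE2B probe was below background on all arrays. PAGE2 itself was detected at a low level without AZA, at 13.1 in MDS-L vehicle and 14.7 in MDS-L/CDA vehicle, and stood at 23.7 in MDS-L AZA and, not well above background, at 8.34 in MDS-L/CDA AZA. Its ratio was 1.81 in MDS-L, short of 2-fold, and in MDS-L/CDA vehicle it was at least 1.10 times its AZA value. XAGE1B gave 2.11, 28.6, 3.17 and 10.3 in the order above, which is at least 3.32-fold higher with AZA in MDS-L. PAGE1, PAGE4, XAGE2, XAGE3, XAGE5 and XAGE-4 were below background on all arrays.

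The CTAG genes encode NY-ESO-1 (CTAG1A and its copy CTAG1B) and LAGE-1 (CTAG2), antigens used as targets of vaccines and engineered T cells. The CTAG1A probe (chrX:153815008-153815067), which lists CTAG1A and CTAG1B, gave 4.0 with vehicle and 1236 with AZA in MDS-L cells, and 2.95 with vehicle and 3.09 with AZA in MDS-L/CDA cells. The CTAG2 probe gave 2.02, 557, 3.52 and 3.55. Both were detected in MDS-L AZA only, at least 144-fold and 64.7-fold above MDS-L vehicle. As the CTAG2 probe lists transcripts of all 3 genes, it does not show on its own that CTAG2 was transcribed.

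PRAME encodes a leucine-rich repeat protein that serves as a substrate receptor of a cullin-2 ubiquitin ligase, is known as a repressor of retinoic acid receptor signalling, and is a frequent antigen of melanoma and acute leukaemia. It is the one member outside CTAGE that lies on chromosome 22. The probe printed above gave 2.09 with vehicle and 92.6 with AZA in MDS-L cells, and 2.86 with vehicle and 2.98 with AZA in MDS-L/CDA cells. A second probe (chr22:22893184-22893243), which lists no RefSeq transcript, gave 3.75, 73.8, 11.9 and 4.91. Both were well above background in MDS-L AZA only, at least 10.8-fold and 8.57-fold above MDS-L vehicle, and a further probe (chr22:22900089-22900148) was below background on all arrays. Of 14 genes on the array that encode partners of PRAME or belong to the retinoic acid pathway, 12 were well above background in MDS-L vehicle and 12 in MDS-L AZA. None was 2-fold higher with AZA in MDS-L (3.06% of all genes) and 2 were lower (2.98% of all genes), namely CYP26A1, which degrades retinoic acid (53.9 with vehicle and 14.4 with AZA in MDS-L cells, and 60.5 with vehicle and 45.0 with AZA in MDS-L/CDA cells), and TCEB2, elongin B, an adaptor of cullin-2 ligases (668, 332, 663 and 612).

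**Figure D2:**
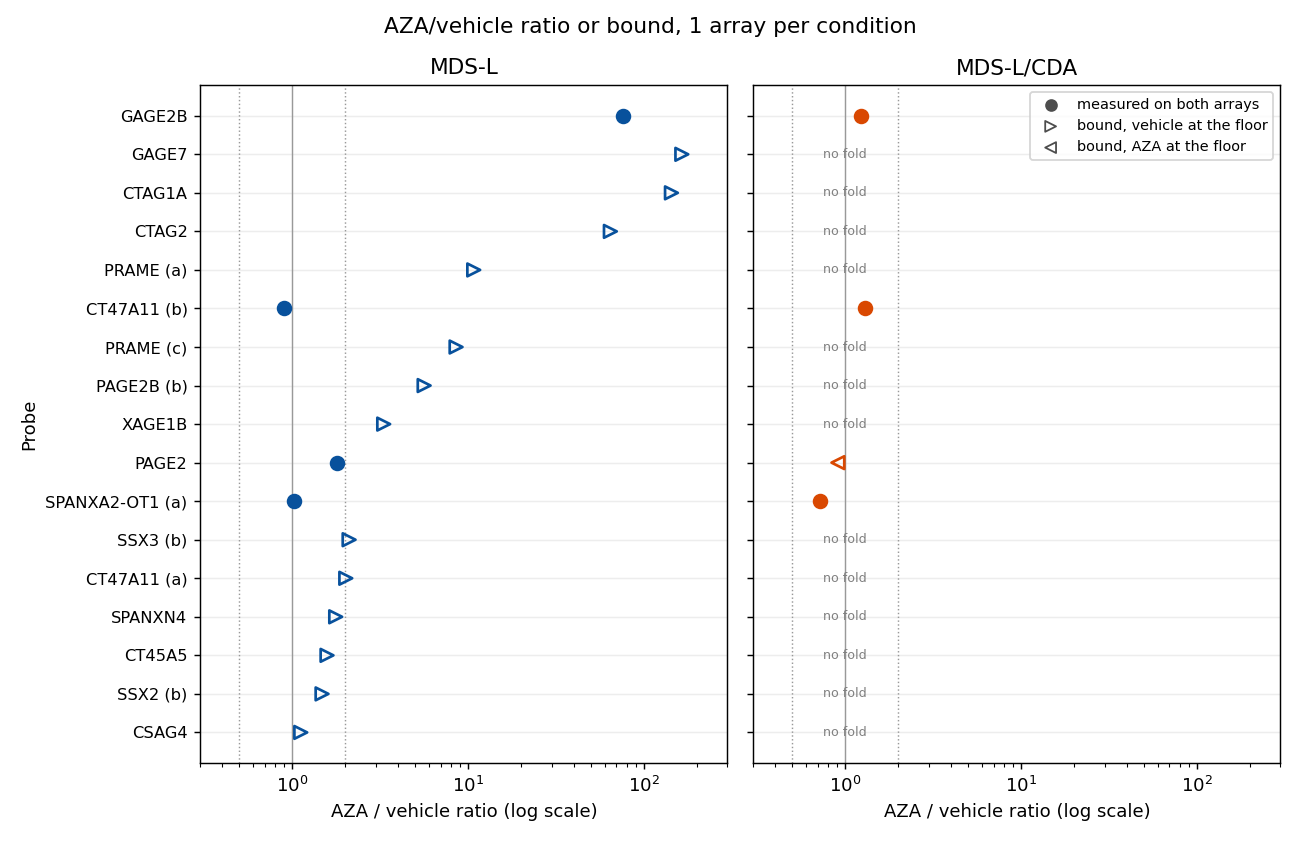
Ratio of AZA to vehicle (log axis) for the 17 member probes outside CTAGE that were detected on at least 1 array, for MDS-L on the left and MDS-L/CDA on the right; filled circles were measured on both arrays, triangles are bounds pointing towards the more extreme values, "no fold" marks probes below background on both, and dotted lines mark 2-fold. In MDS-L 10 probes lie beyond 2-fold, up to at least 165-fold for GAGE7, whereas in MDS-L/CDA the 4 values that could be given lie within 2-fold.

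The remaining X-linked families had few detected members. Of the 8 SSX genes, whose products are transcriptional repressors fused to SS18 in synovial sarcoma, SSX3 gave 4.09, 18.1, 8.52 and 6.23 and SSX2 gave 5.47, 12.7, 11.9 and 11.5, in the order used above. Only the MDS-L AZA values were well above background, at least 2.11-fold and 1.48-fold above MDS-L vehicle. The SSX3 probe lists transcripts of SSX2, SSX2B and SSX3, and the other 10 SSX probes were below background everywhere (1.85 to 6.85).

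Of the 9 SPANX genes, named for a sperm protein associated with the nucleus, 7 were below background on all arrays. SPANXN4 gave 2.32, 15.3, 5.84 and 3.12, at least 1.77-fold higher with AZA in MDS-L. A probe of the non-coding SPANXA2-OT1 was detected on all arrays at 18.8, 19.2, 27.2 and 19.5 with a ratio of 1.02 in MDS-L. The other SPANXA2-OT1 probe was below background on all arrays (2.27 to 3.87). CT45A5 gave 1.87, 13.6, 2.85 and 4.01, at least 1.58-fold higher. CSAG4 gave 4.55, 9.61, 6.62 and 10.6, of which only the MDS-L AZA value was well above background although the MDS-L/CDA AZA value was numerically higher, since the limit differed between the arrays.

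Probes of CT47A11 disagreed. The probe printed above gave 3.94 with vehicle and 17.4 with AZA in MDS-L cells, and 2.96 with vehicle and 3.07 with AZA in MDS-L/CDA cells, at least 2.02-fold higher with AZA in MDS-L. The other probe (chrX:120070884-120070943) was detected on all arrays, at 97.2, 87.6, 63.7 and 82.2, with a ratio of 0.902 in MDS-L and 1.29 in MDS-L/CDA. The calls nearest the 2-fold threshold were CT47A11 (2.02) and SSX3 (2.11), and the nearest members that did not reach it were PAGE2 (1.81) and SPANXN4 (1.77). Calls for CT47A11 and SSX3 were lost under quantile normalization, median scaling and in the authors' value table. Normexp background correction, which here adds an offset of 50 to every signal, lost both of these along with PAGE2B and XAGE1B.

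**Figure D3:**
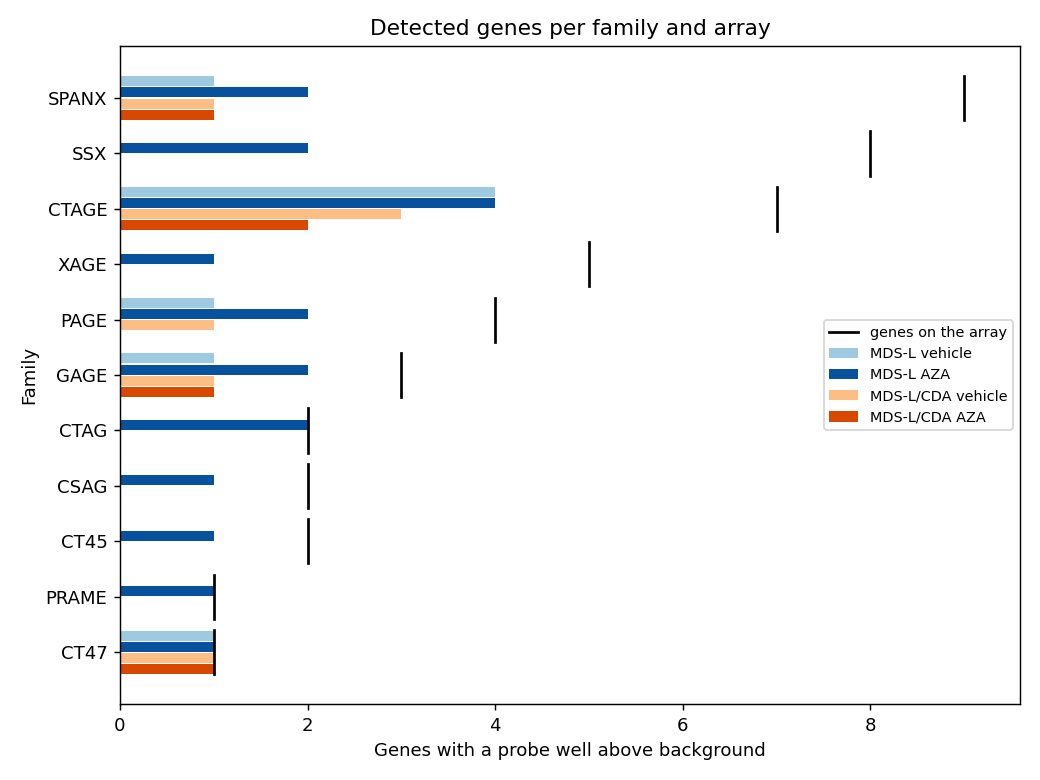
Number of genes per family with at least 1 probe well above background, one bar per array, with a vertical line at the number of genes on the array. MDS-L AZA has the longest or an equally long bar in every family, and GAGE, PAGE, CTAGE, SPANX and CT47 are the families with any detected gene in MDS-L vehicle.

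The CTAGE genes, of which CTAGE5 (MIA2) encodes a protein of endoplasmic reticulum exit sites, showed another pattern. CTAGE11P was detected at 389 with vehicle and 347 with AZA in MDS-L cells, and 458 with vehicle and 453 with AZA in MDS-L/CDA cells, and a CTAGE4 probe at 649, 650, 744 and 825. CTAGE1 (chr18:19995923-19995982, also listing MIA2) gave 21.6, 10.6, 20.8 and 11.1. It was 2.04-fold lower with AZA in MDS-L and at least 1.55-fold lower in MDS-L/CDA, so the direction was the same in both lines, but its call in MDS-L was lost when arrays were scaled to detected or spike-in probes. The other CTAGE1 probes were below background on all arrays. A CTAGE5 probe gave 6.95, 9.77, 4.57 and 7.63, well above background in MDS-L AZA only, and another gave 14.1, 12.8, 3.08 and 10.5, detected with either treatment in MDS-L. The MDS-L/CDA AZA value of 10.5 lay above the lowest detected signal of the MDS-L arrays and below that of its own array.

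Without AZA no member met the 2-fold rule between the lines. In MDS-L/CDA vehicle compared with MDS-L vehicle, 0 members were higher (0.960% of all genes) and 0 were lower (1.28%). Both counts lie near these shares, and only 9 member probes had a ratio or bound here. Most members were below background on both vehicle arrays, so whether they differed between the lines was not measured. With AZA, 0 members were higher in MDS-L/CDA than in MDS-L (2.61% of all genes) and 7 (15.9%) were lower (2.42% of all genes). These 7 were CTAG1A, CTAG2, GAGE2B, GAGE7, PAGE2B, PRAME and XAGE1B. Counted once per family, the 7 became 5. The comparison uses the same MDS-L AZA array as the one with MDS-L vehicle, so the counts are not separate observations. MDS-L AZA was 47.4-fold above MDS-L/CDA AZA for GAGE2B, at least 106-fold for GAGE7, at least 92.2-fold for CTAG1A and at least 41.6-fold for CTAG2. For PRAME the bounds were 6.91-fold and 5.50-fold, for PAGE2B 3.62-fold and for XAGE1B 2.13-fold.

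Markers of other cells were read on the same arrays. Of 8 myeloid and progenitor markers, 6 or 7 were well above background on each array and MPO on none. KIT was 47.3-fold higher with AZA in MDS-L cells on one probe (22.8 and 1080) and 3.58-fold higher in MDS-L/CDA cells (15.7 and 56.2). ITGAM was below background with vehicle and detected with AZA in both lines, at 3.59 and 18 in MDS-L and 4.81 and 17.2 in MDS-L/CDA. All 9 germ cell markers, among them DDX4, DAZL and the protamine genes, were below background on every array, with summed signals of 49.9, 53.0, 58.4 and 53.1 in the order above. Of 3 T cell markers, 0 were detected with vehicle and 2 with AZA in MDS-L cells, and 0 with vehicle and 1 with AZA in MDS-L/CDA cells. Their summed signal was 23.9 with vehicle and 267 with AZA in MDS-L cells, and 24.2 with vehicle and 36.1 with AZA in MDS-L/CDA cells. CD3D gave 8.03 and 203 and CD2 gave 9.83 and 58.4 in MDS-L vehicle and AZA, CD2 gave 11.8 and 20.5 in MDS-L/CDA, with CD3E below background on all arrays. Of 5 epithelial markers 2 were detected on every array (summed 336 to 504), and of 3 fibroblast markers 0. KRT8, from 27.0 to 55.2, was also at least 2-fold higher in MDS-L AZA. The part of these markers or of other cell types in the antigen signals was not tested.

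Promoters of the members were read from RefSeq (GRCh38.p14), which held 62 promoters of 51 genes named by the rule, and 36 of these belonged to 27 genes on the array. The 250 bases before the start are printed in the direction of the gene, with CG, the dinucleotide that is methylated in DNA, in capitals. GAGE12F stands for the GAGE2B probe that lists it, PRAME, XAGE1B and PAGE2B were detected in MDS-L AZA only, and SPANXN2 was below background on all arrays.
GAGE12F, chrX:49560592-49560841, plus strand: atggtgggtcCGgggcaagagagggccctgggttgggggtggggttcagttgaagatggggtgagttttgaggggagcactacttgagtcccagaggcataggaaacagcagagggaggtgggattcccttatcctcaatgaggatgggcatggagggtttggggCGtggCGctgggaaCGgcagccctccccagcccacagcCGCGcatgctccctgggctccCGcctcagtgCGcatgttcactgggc
PRAME, chr22:22559266-22559515, minus strand: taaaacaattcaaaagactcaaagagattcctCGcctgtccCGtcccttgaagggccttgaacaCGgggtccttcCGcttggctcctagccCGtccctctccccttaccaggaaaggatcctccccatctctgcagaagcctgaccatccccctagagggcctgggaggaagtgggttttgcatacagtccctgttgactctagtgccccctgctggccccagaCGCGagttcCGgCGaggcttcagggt
XAGE1B, chrX:52517013-52517262, minus strand: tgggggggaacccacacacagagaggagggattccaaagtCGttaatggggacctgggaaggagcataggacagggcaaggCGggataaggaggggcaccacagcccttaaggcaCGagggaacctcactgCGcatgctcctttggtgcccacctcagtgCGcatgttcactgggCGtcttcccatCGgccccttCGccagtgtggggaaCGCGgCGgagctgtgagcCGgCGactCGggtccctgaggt
PAGE2B, chrX:55074780-55075029, plus strand: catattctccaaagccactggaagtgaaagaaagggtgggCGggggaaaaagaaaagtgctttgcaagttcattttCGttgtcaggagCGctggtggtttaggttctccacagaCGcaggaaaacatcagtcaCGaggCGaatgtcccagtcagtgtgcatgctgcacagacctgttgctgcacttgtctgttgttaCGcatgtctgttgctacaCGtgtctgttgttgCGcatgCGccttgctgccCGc
SPANXN2, chrX:143720753-143721002, minus strand: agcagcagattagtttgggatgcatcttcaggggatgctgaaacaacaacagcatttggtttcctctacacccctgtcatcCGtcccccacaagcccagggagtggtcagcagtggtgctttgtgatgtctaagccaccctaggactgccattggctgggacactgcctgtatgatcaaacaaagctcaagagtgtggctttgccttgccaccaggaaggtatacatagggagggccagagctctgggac
Within 300 bases (250 before and 50 after the start) these promoters held 13, 13, 17, 12 and 1 CG dinucleotides. PRAME and XAGE1B each have 3 starts in the table, with 13, 12 and 4 CG for PRAME and 17, 15 and 14 for XAGE1B, and the stretch printed is that of the start with the most. SPANXN2 is a low extreme among the undetected genes, since CSAG1, one start of XAGE3 and PAGE1, also undetected, held 16, 14 and 13. The GAGE12F stretch was identical to those of GAGE12C, GAGE12D, GAGE12E, GAGE12H, GAGE12J, GAGE13, GAGE2A and one start of GAGE1 over all 250 bases, and the XAGE1B stretch to that of XAGE1A. Bases were compared position by position without alignment. The stretches of GAGE12B, GAGE12G and the other GAGE1 start share a long run with GAGE12F from a shifted start and were not counted as identical. GAGE1, whose probe was below background, has a start with the same upstream bases as GAGE12F.

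Over all 35116 promoters of the table the median was 14 CG, with quartiles of 4 and 28. The median was 13 over the GAGE promoters, 14 over XAGE, 12 over PRAME, 10 over PAGE, 9.5 over SSX and CT45, 6 over SPANX and 18 over CSAG and CTAGE. The promoters read here included none named CTAG1A, CTAG1B, CTAG2, GAGE7 or GAGE2B and none of the CT47 family. The genes with the largest AZA ratios or bounds in MDS-L are therefore not represented under their own names. The letters CCGGAA, searched on both strands, were in 2 of the 62 promoters and in 17.2% of all promoters. GGGCGG, likewise on both strands, was in 6 of the 62 and in 45.0% of all. Both are counts of letters only.

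**Figure D4:**
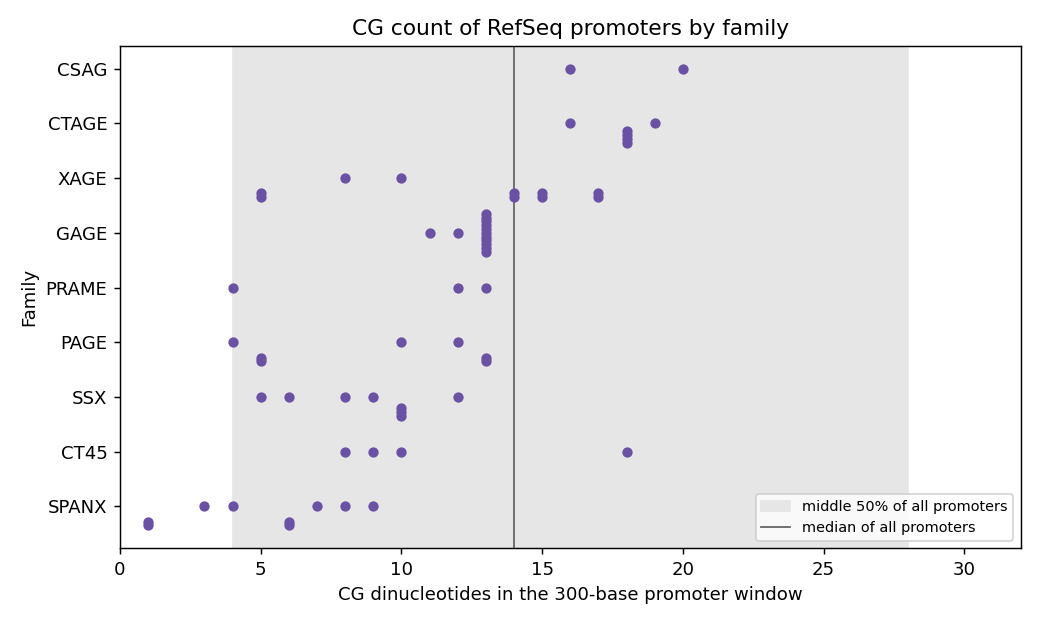
CG dinucleotides in the 300-base RefSeq promoters named by the rule, one point per promoter and one row per family, with the grey area spanning the middle 50% of all promoters (4 to 28) and the vertical line their median (14). GAGE promoters lie between 11 and 13, SPANX promoters between 1 and 9, and CSAG and CTAGE promoters between 16 and 20.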

How the data were processed

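Total RNA of 4 conditions was hybridized to 4 one-colour arrays on 1 slide. The authors deposited the scanner output, made with Agilent Feature Extraction 10.7.1.1, in which spot intensity is background-subtracted within each array and not normalized between arrays, and a value table of intensity whose columns share one distribution, as quantile normalization gives. The study's methods do not describe that step. Here 16 probes with outlier flags and all control spots were removed, spots of one probe were averaged on the log2 scale, and each array was scaled to its 75th percentile (52.5 with vehicle and 52.9 with AZA in MDS-L cells, and 40.8 with vehicle and 37.3 with AZA in MDS-L/CDA cells before scaling). No spot was saturated. A gene counted when at least 1 probe was well above background on the brighter array and its ratio or bound reached 2-fold. Precision is limited by the number of arrays, and no test was made because each condition has 1.

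Named members are those with a probe well above background on at least 1 array, and others are given as counts and ranges. The members and lists were chosen with earlier results of these data known. The CDA probe was added later as a check of the labels. One marker list is not reported here. The calling rule was tested on simulated data in which both arrays of a pair had the same floor and changes were placed in bright probes. It therefore tells little about bounds, on which most calls here rest. Alternatives were other scalings, normexp background correction, the authors' value table, other detection rules, folds of 1.5 and 3, a ratio with a Z score of at least 2 as in the study's methods (its bins were chosen here), other rules for several probes, and a higher floor, added after seeing the data. Transcripts were matched to RefSeq without versions. Normexp was run with an offset of 50 in limma 3.58.1 under R 4.3.3. All other steps were run in Python 3.11.15 with pandas 2.3.3, numpy 2.4.6, matplotlib 3.10.9 and scipy 1.17.1.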

Additional observations from a re-analysis of the deposited data

How the results depend on the processing

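Of 142 counts recomputed under alternatives, 116 stayed within 1.5 times the reported count, and these include counts of 0 that stayed 0. Of 133 probe ratios or bounds 0 changed direction and 19 moved by more than the spot error, all 19 under normexp. There the log2 bound for AZA in MDS-L went from 7.37 to 4.68 for GAGE7 and from 7.17 to 4.44 for CTAG1A. For the PRAME probe printed above it went from 3.43 to 1.3. The 9 members higher with AZA in MDS-L became 5 under normexp and 1 (GAGE2B) where both arrays had to be well above background, since most vehicle signals lay below it. The count was 7 under quantile normalization, median scaling and the authors' value table, 11 with scaling to probes detected on all arrays, 12 with a fold of 1.5 and 7 with a fold of 3 or with a floor 1.5 times higher, which was chosen after seeing the data. The 7 members lower in MDS-L/CDA than in MDS-L with AZA became 12 from ratios without a bound and 1 where both arrays had to be well above background. The 1 member lower with AZA in MDS-L, CTAGE1, became 0 with scaling to detected probes or to spike-in probes, under normexp, with a fold of 3, with the Z score, and without the CTAGE genes. Between the vehicle arrays the 0 lower members became 1 under median scaling, from ratios without a bound, with a fold of 1.5 and with the Z score, and with a fold of 1.5 there was also 1 member lower with AZA in MDS-L/CDA. The normexp setting adds an offset of 50 to every signal, which by itself draws the ratios of dim probes towards 1. How much of the normexp changes this makes up was not tested, nor was the cause of the other changes.

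Detected members numbered 8, 19, 7 and 5 in MDS-L vehicle, MDS-L AZA, MDS-L/CDA vehicle and MDS-L/CDA AZA. They were 28, 34, 28 and 27 with the scanner's looser mark of a positive and significant signal, 4, 12, 4 and 3 when all probes of a gene had to be detected, and 4, 15, 4 and 3 without the CTAGE genes. Median scaling lowered the median log2 ratio over all measured probes for AZA in MDS-L by 0.54, and scaling to detected probes raised it by 0.18. No paired analysis was possible because each group holds 1 array. Signals near 8.61 to 13.4 are at the limit of detection, so the bounds for SSX2, SSX3, CT45A5, CT47A11, SPANXN4 and CSAG4 rest on values close to it.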

Other observations

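Cancer-testis genes outside the families above were also followed. Of 36 other X-linked cancer-testis genes on the array, 1 was well above background with vehicle and 7 with AZA in MDS-L cells, 1 was with either treatment in MDS-L/CDA cells, and 29 were detected on no array. Over all genes, 5.01% of those below background with vehicle were well above it with AZA in MDS-L, and for MDS-L/CDA this share was 2.37%. Of the 36 genes, 2 were at least 2-fold higher with AZA in MDS-L, MAGEA9 and FTHL17, against 3.06% of all genes. MAGEA9, a melanoma antigen gene, gave 2.06 with vehicle and 28.8 with AZA in MDS-L cells, and 2.75 with vehicle and 2.85 with AZA in MDS-L/CDA cells, at least 3.34-fold higher with AZA in MDS-L. FTHL17, a ferritin heavy chain relative, was detected on all arrays at 62.4, 257, 153 and 143, and was 4.13-fold higher with AZA in MDS-L and 2.46-fold higher in MDS-L/CDA vehicle than in MDS-L vehicle. MAGEA6, MAGEC1, TKTL1, VCX2 and FMR1NB were well above background in MDS-L AZA only, at 9.95 to 16.0. The MAGEA6 probe gave almost the same signal with AZA in both lines, 10.1 in MDS-L and 9.85 in MDS-L/CDA, where the limit was higher (13.4). Other probes of MAGEA6, MAGEC1 and VCX2 were below background on all arrays.

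Of 33 autosomal germline and cancer-testis genes, 6 were well above background in MDS-L vehicle and 5 in MDS-L AZA. TDRD9, a piRNA pathway helicase, gave 1.93, 32.3, 2.68 and 2.73 in the same order and was the 1 gene of this list at least 2-fold higher with AZA in MDS-L, against 3.06% of all genes. A MOV10L1 probe was detected in MDS-L/CDA AZA only (1.88, 3.92, 2.68 and 23.1), at least 2.68-fold above MDS-L AZA. TPTE was at 316 with vehicle and 157 with AZA in MDS-L/CDA cells, and its ratio in MDS-L cells was 0.965. Of 22 genes of the DNA methylation machinery with CTCFL, 0 were 2-fold higher (3.06% of all genes) and 4 were lower (2.98%) with AZA in MDS-L on at least 1 probe, namely DNMT3B, UHRF1, TET1 and TET2, and in MDS-L/CDA 0 were higher (1.10%) and 0 lower (1.46%). DNMT3B, a de novo methyltransferase, gave 4983, 2307, 5107 and 4698 on its detected probe, and UHRF1, which guides DNMT1 to replicated DNA, gave 1144, 518, 943 and 799, while its other probe fell short of 2-fold at 375, 198, 391 and 372. The TET1 and TET2 calls each rest on a probe not well above background with AZA (21.3 and 9.14 for TET1, 19.4 and 9.19 for TET2, vehicle and AZA), while another TET1 probe had a ratio of 0.577 and other TET2 probes 0.949 and 1.12. DNMT1 gave 384, 306, 406 and 453. CTCFL, a germline relative of CTCF, was below background on all arrays.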
